A study of Mus musculus with 8 samples.

Results

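The genes described here mark the kind of cell a neural cell is: progenitor, glial, general neuronal and striatal. The list was made by gene symbol and holds 44 genes of the 18120 symbols on the array. Of these, 42 had a probe under their own symbol, Map2 had its probes under the older symbol Mtap2, and Sox11 was matched to no probe. Together they carried 71 of the 25697 probes. By role, 8 were progenitor genes, 7 glial genes, 9 general neuronal genes and 20 striatal genes, the last group with the GABA-synthesizing enzymes included. Of the 44 genes, 11 were chosen by the study on these same arrays as striatal-enriched genes that changed, so their changes are not independent evidence of an effect.

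STHdh striatal cells, here the wild-type line, are mouse cells conditionally immortalized from embryonic striatum and grown as dividing neuronal progenitors. One group of 4 arrays held RNA from cells given a pcDNA3.1 plasmid carrying mouse Bcl11b (beta isoform), and the other group of 4 held RNA from cells given the empty pcDNA3.1 plasmid, here called mock. RNA was taken 2 days after transfection from 4 sets of cells per group, all of 1 cell line, and each set was hybridized to 1 Illumina MouseRef-8 v2 array. The sample titles name only the plasmid, and the cell line was wild-type in both groups. The methods describe no selection of transfected cells before RNA was taken. P-values measure the spread between these sets of cells and arrays of a single line.

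Bcl11b, also called Ctip2, is a zinc finger transcription factor of the medium spiny neurons, the projection neurons that make up most of the striatum. As these neurons mature from ventricular zone progenitors, nestin, vimentin and Sox factors of the progenitor give way first to general neuronal proteins of the cytoskeleton and then to signalling proteins of the striatum such as DARPP-32 (Ppp1r1b), Rgs9 and Adcy5. The glial genes mark astrocytes (Gfap, S100b), cells of the oligodendrocyte lineage (Olig2, Pdgfra, Cspg4) and myelin (Mbp). Several of them, Pdgfra, Cspg4 and Cd44 among them, are also well known from mesenchymal cells.

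A probe was called detected on an array where its deposited detection p-value, set against the negative control beads of that array, was under 0.01. The other values are log2 signals after quantile normalization, in which normalized signals under 1 were set to 1. Probes bind with different strength, so a signal was compared only with the same probe on other arrays. The median deposited signal was 31.6 to 53.9 on the mock arrays and 20.1 to 30.2 on the Bcl11b arrays. The number of detected probes was alike in both groups, at 10121 to 10784 on the mock and 10342 to 10644 on the Bcl11b arrays. Relative to their group means, mock replicates 2 and 4 deviated in the same direction as Bcl11b replicate 4. The correlation of deviations over the 9360 probes detected on all 8 arrays was 0.56 between mock replicate 2 and Bcl11b replicate 4, and 0.70 between mock replicate 4 and Bcl11b replicate 4. The number of arrays limits the precision of every value.

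Detection differed between the groups of genes listed. Of 43 genes with a probe, 18 were detected on at least 1 array and 25 on none. The detected genes were 5 of 7 progenitor genes, 3 of 7 glial genes, 5 of 9 neuronal genes and 5 of 20 striatal genes. Of all probes on the array 45.7% were detected in this way, against 7 of 10 progenitor, 7 of 14 glial, 8 of 14 neuronal and 6 of 33 striatal probes listed here. Each of the 18 detected genes was detected in both groups, so none was gained or lost with Bcl11b at this limit. A total of 15 had a probe detected on all 8 arrays. The order of the groups may depend on the genes chosen for them. Of further progenitor genes 3 of 9 were detected, beside 47.3% of all symbols. Of further striatal genes 8 of 17 were detected. All of these 8 except Dgke were chosen by the study on these arrays because they changed. That striatal share is therefore not an independent measure of detection.

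**Figure D1:**
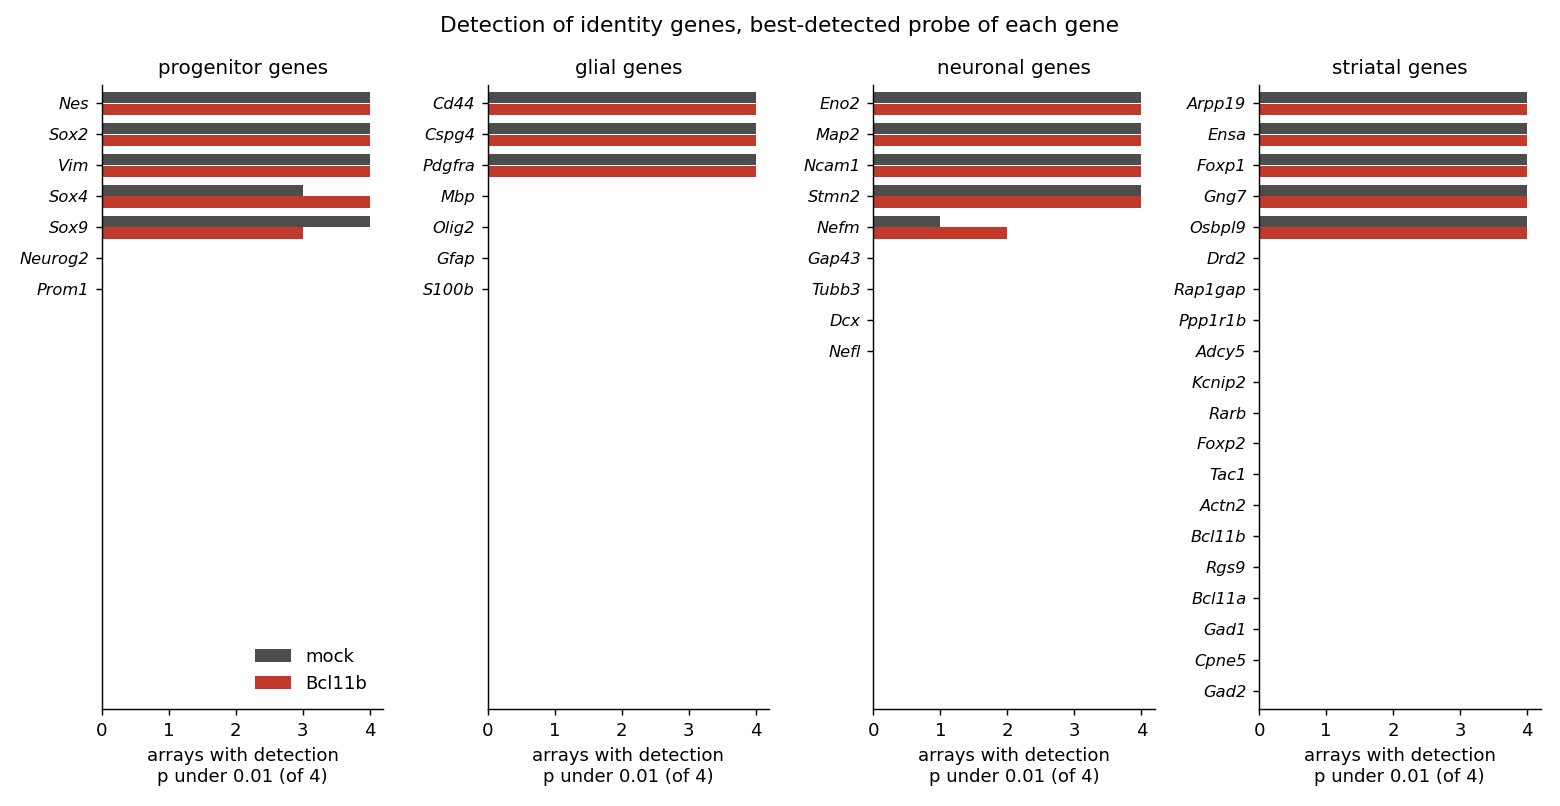
Number of arrays, of 4 mock (grey) and 4 Bcl11b (red), on which the best-detected probe of each of the 43 genes had a detection p-value under 0.01, by group of genes. No bar is drawn for 15 of the 20 striatal, 4 of the 9 neuronal, 4 of the 7 glial and 2 of the 7 progenitor genes.

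Of the striatal genes, 15 were not detected, while Foxp1, Gng7, Arpp19, Ensa and Osbpl9 were detected on all 8 arrays. Ppp1r1b encodes DARPP-32, the phosphatase inhibitor that integrates dopamine and glutamate signals. It had 3 probes and was detected with none of them, although 2 probes came close to the limit, with lowest detection p-values over the 8 arrays of 0.0163 and 0.01003. Drd2, the dopamine receptor of the indirect pathway, was also just outside the limit, at 0.0113 at best on the mock and 0.01003 at best on the Bcl11b arrays. Rap1gap, which switches off the GTPase Rap1, reached 0.01003 on the Bcl11b and 0.0489 on the mock arrays. All other undetected striatal genes lay further from the limit. Adcy5, the striatal adenylyl cyclase, had a lowest detection p-value of 0.0639, and Tac1, the substance P precursor of the direct pathway, had 0.218. Rgs9, a brake on dopamine receptor signalling, had 0.419 and the copine Cpne5 had 0.585. The GABA-synthesizing enzymes Gad1 and Gad2 were at 0.564 and 0.708 at best, so their probes were not above the negative control beads on any array. Foxp2, with 4 probes, the potassium channel partner Kcnip2 and the retinoic acid receptor Rarb, with 3 each, and the actin crosslinker Actn2, with 1, were not detected either. A gene not detected at this limit may still be expressed. The study amplified Ppp1r1b, Rgs9, Adcy5, Cpne5 and Bcl11b from these cells by PCR. It also counted most of its striatal-enriched genes as present on these arrays.

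The single Bcl11b probe was not detected on any array, with a lowest detection p-value of 0.363 on the mock and 0.261 on the Bcl11b arrays. The part of the transcript that this probe reads is not given in the files used here, so the arrays carry no check of the transfected gene. The study nevertheless lists Bcl11b among the striatal-enriched genes that changed on its arrays, as lower. It assessed transfection separately, in part by qPCR of Bcl11b mRNA in duplicate sets of cells. The Bcl11b paralog Bcl11a was not detected either, with 0.521 at best.

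Outside the striatal genes the undetected ones were the proneural factor Neurog2 and the stem cell surface protein Prom1, the astrocyte genes Gfap and S100b, the oligodendrocyte factor Olig2, and Mbp. Of the neuronal genes Dcx, the microtubule protein of migrating neuroblasts, Tubb3, the tubulin of young neurons, the light neurofilament Nefl and the growth cone protein Gap43 were not detected. Gfap had a lowest detection p-value of 0.421, S100b 0.769 and Nefl 0.843. With a limit of 0.05 in place of 0.01, a further 8 genes would count as detected, namely Neurog2, Mbp, Tubb3, Dcx, Gap43, Ppp1r1b, Drd2 and Rap1gap, which would make 26 in all.

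Expression of the 18 detected genes was then compared between the groups, 1 probe per gene. The unadjusted limma p-value was under 0.05 for 3 of them. These were Pdgfra, Osbpl9 and Arpp19, each with a lower signal on the Bcl11b arrays. That is 16.7% of the 18, beside 17.7% of all 11755 probes detected on at least 1 array (12.5% lower and 5.16% higher) and 10.4% of all probes, so the share was close to that of the detected probes as a whole. Only Pdgfra passed a limma adjusted p of 0.10. Of the 25697 probes 0.981% did so, and of the detected probes 1.67% did, with 1.2% lower and 0.468% higher. The median log2 fold change of the 18 was 0.0091, against -0.016 over all detected probes, with 9 genes above 0 and 9 below. Of the 14 detected genes that the study had not chosen on these arrays, Pdgfra was the only one under 0.05, and of the 4 that it had chosen, 2 were. Counting every detected probe of the 18 genes, 7 of 28 had an unadjusted p-value under 0.05, 3 higher and 4 lower. The median spread between arrays of a group (SD) was 0.23 for the 15 genes with a probe detected on all 8 arrays and 0.26 for all probes detected on all 8 arrays, both on the log2 scale.

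**Figure D2:**
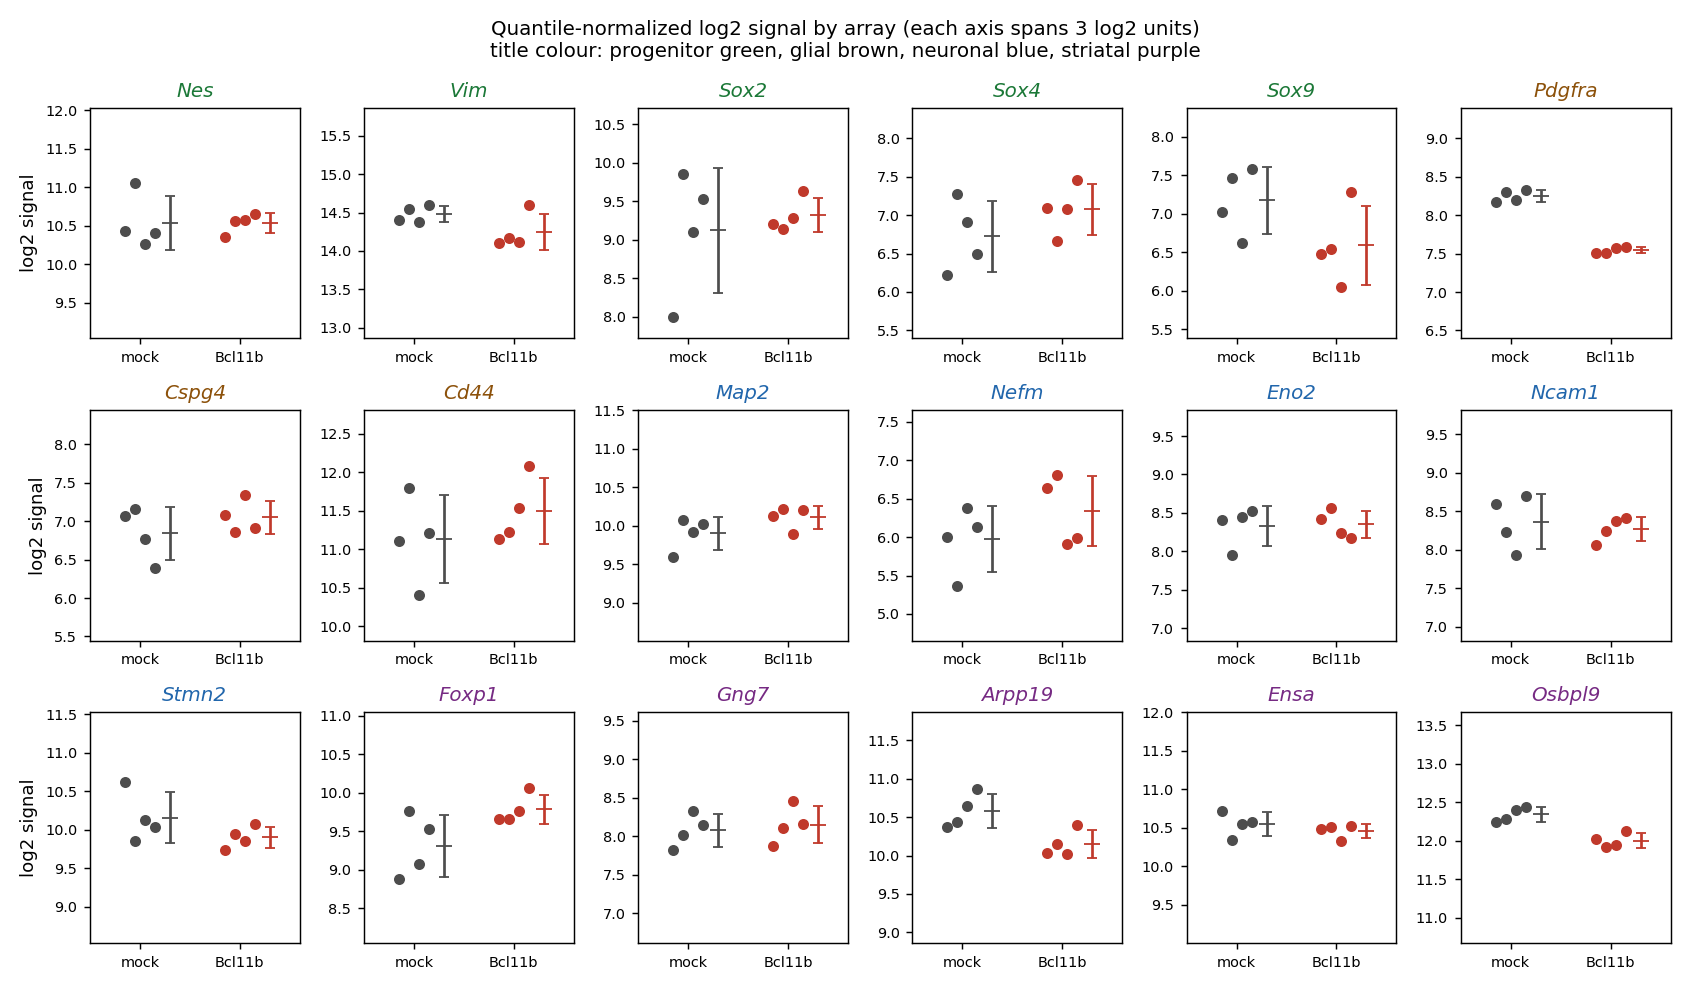
Quantile-normalized log2 signal on each array for the representative probe of the 18 detected genes, with mock arrays in grey, Bcl11b arrays in red, and the mean with SD (n = 4) beside the points. In Pdgfra and Osbpl9 every Bcl11b array lies below every mock array, and in the other 16 genes the groups overlap.

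Pdgfra, the receptor for platelet-derived growth factor on oligodendrocyte progenitors and mesenchymal cells, fell. Its log2 signals were 8.17, 8.30, 8.20 and 8.33 on mock replicates 1 to 4 and 7.51, 7.51, 7.58 and 7.59 on Bcl11b replicates 1 to 4. The 2 groups lie well apart, and each is tight. The means were 8.25 ± 0.076 (SD, n = 4) and 7.55 ± 0.044 (SD, n = 4), and the log2 fold change was -0.70 with a standard error (SE) of 0.043 (limma adjusted p = 0.00296), a signal 1.63-fold lower. Among all 25697 probes it ranked 13 by p-value. Among detected probes 10.1% had groups that lay apart, 7.09% with the Bcl11b arrays lower and 2.97% with them higher.

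The fall of Pdgfra had an unadjusted p-value under 0.05 in all 17 other settings, including each array left out in turn. Its log2 fold change lay between -0.66 and -0.73 except without normalization between arrays, where it was -1.44 with an adjusted p of 0.12 from limma and where the median over all detected probes was itself shifted by -0.68. In the remaining settings the adjusted p ran from 0.00153 with arrayWeights to 0.0964 under limma-trend.

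The RefSeq promoters of the genes with the smallest p-values, Pdgfra and Osbpl9, are given from 250 bases before to 50 after each transcription start. They are shown to let the regions be read against the sequence ACCACA, the sequence TGCTTG and the sequence AGTGCT, which are among the motifs that the study proposed for Bcl11b. They were searched on both strands and are set in capitals. Coordinates are of GRCm38.p6, each sequence runs 5′ to 3′ on the strand of its gene, and RefSeq lists 2 starts for Osbpl9. Pdgfra is on the plus strand at chr5:75152001-75152300. The Osbpl9 starts are on the minus strand at chr4:109202223-109202522 and chr4:109117987-109118286.
Pdgfra: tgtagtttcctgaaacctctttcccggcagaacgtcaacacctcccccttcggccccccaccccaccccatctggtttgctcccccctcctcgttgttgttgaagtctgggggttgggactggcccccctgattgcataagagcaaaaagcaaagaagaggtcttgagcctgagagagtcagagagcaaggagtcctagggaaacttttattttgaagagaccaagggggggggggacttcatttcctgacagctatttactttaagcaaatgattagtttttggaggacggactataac
Osbpl9, start 1: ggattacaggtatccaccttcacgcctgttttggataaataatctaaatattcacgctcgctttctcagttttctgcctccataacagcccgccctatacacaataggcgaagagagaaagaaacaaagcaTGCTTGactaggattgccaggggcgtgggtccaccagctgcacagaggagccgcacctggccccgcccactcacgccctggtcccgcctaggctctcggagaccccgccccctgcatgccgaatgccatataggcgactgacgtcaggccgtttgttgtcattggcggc
Osbpl9, start 2: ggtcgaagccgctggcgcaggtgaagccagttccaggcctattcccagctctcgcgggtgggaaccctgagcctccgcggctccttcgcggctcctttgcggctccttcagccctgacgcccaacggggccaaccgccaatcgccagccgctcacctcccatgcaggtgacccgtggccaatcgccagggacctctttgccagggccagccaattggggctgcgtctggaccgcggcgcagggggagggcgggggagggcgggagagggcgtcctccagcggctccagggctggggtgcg
The Pdgfra promoter held none of the 3 sequences, and the first Osbpl9 start held TGCTTG once. Of all 32851 promoters of this length in the table, 16.4% held TGCTTG and 39.5% held at least 1 of the 3. The promoter table matched 35 of the 44 genes with 48 promoters, 33.3% of which held at least 1. The matches describe the letters of these windows and not binding.

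Of the 3 detected glial genes, Pdgfra was the only one with a lower mean on the Bcl11b arrays. Cspg4, the NG2 proteoglycan that oligodendrocyte progenitors carry together with Pdgfra, had log2 signals of 7.06, 7.15, 6.77 and 6.39 on the mock and 7.07, 6.86, 7.34 and 6.91 on the Bcl11b arrays. The groups overlap, and the log2 fold change of 0.20 had a 95% interval of -0.27 to 0.68. Of 5 further oligodendrocyte genes with a probe, only Cnp was detected, on 1 array, and of 6 microglial genes only Cd68, on 2 Bcl11b arrays. Neither the 5 genes of endothelial cells nor the astrocyte genes other than Gja1 were detected.

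Of 12 mesenchymal genes with a probe, 9 were detected, 8 of them on all 8 arrays, and of these 9, Dcn was higher and Pdgfrb and Col5a1 were lower at an unadjusted p-value under 0.05, which 17.7% of all detected probes had. Dcn, the collagen-binding proteoglycan decorin, rose by 1.47 on the log2 scale (SE 0.19, limma adjusted p = 0.0492), and the groups lay apart with both of its probes. The second probe, detected on Bcl11b arrays only, was at least 1.26-fold higher (limma adjusted p = 0.0885), a bound set against the lowest detected signal of each mock array or the probe itself where higher. The adjusted p of the first probe was over 0.10 in 8 of the 17 other settings and at most 0.188, and that of the second was over 0.10 in 10 and at most 0.262. Pdgfrb, the second receptor for platelet-derived growth factor, had a log2 fold change of -0.49 (SE 0.15, limma adjusted p = 0.309). Its log2 signals were 7.89, 8.46, 8.0 and 8.16 on the mock and 7.53, 7.49, 7.65 and 7.88 on the Bcl11b arrays, where only a narrow gap separates the groups. The summed normalized signal of the 9 mesenchymal genes ran from 20742 to 24020 on the mock and from 19443 to 23896 on the Bcl11b arrays, so the groups overlapped in the sum, and its part in the fall of Pdgfra was not tested. The sum adds different probes, so bright ones weigh most and dimmer genes count little in it. Acta2, for example, had mean log2 signals of 13.55 on the mock and 13.51 on the Bcl11b arrays. In bulk RNA, fewer cells of a type and less RNA per cell cannot be told apart.

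Cd44, the hyaluronan receptor of glial progenitors and mesenchymal cells, was detected on all 8 arrays with 2 of its 6 probes. The brightest had log2 signals of 11.11, 11.80, 10.40 and 11.22 on the mock and 11.13, 11.22, 11.54 and 12.08 on the Bcl11b arrays. Its mock arrays spread over more than the distance between the group means, and the log2 fold change was 0.36 (95% interval -0.48 to 1.20, limma adjusted p = 0.802). The dimmer probe ILMN_2640330, detected on 3 mock and 4 Bcl11b arrays, was higher by 0.94 at an unadjusted p of 0.0404, which 9 of the 17 other settings moved over 0.05.

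**Figure D3:**
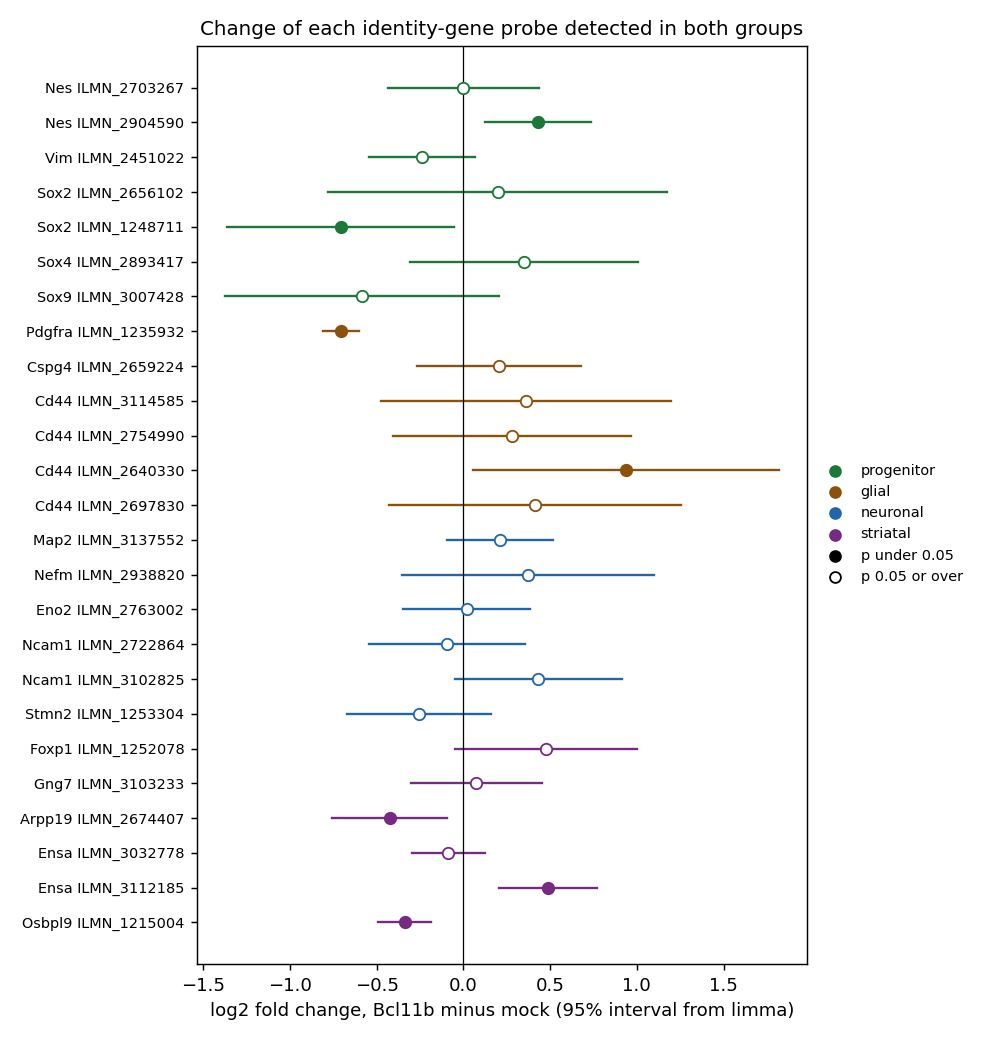
Log2 fold change, Bcl11b minus mock, with its 95% interval from limma for the 25 probes of identity genes detected in both groups, coloured by group of genes and filled where the unadjusted p-value was under 0.05. The interval of Pdgfra, from -0.81 to -0.60, is the narrowest, and most intervals span 0.

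Of the 5 detected progenitor genes, none had an unadjusted p-value under 0.05 with its representative probe. Nes encodes nestin, the intermediate filament of neural progenitors. Its brighter probe had log2 signals of 10.43, 11.05, 10.26 and 10.41 on the mock and 10.36, 10.56, 10.58 and 10.65 on the Bcl11b arrays. Mock replicate 2 was the highest of the 8, and the means were both 10.54 (95% interval of the difference -0.44 to 0.43). Its dimmer probe gave 7.28, 7.78, 7.37 and 7.42 on the mock and 7.71, 7.88, 8.05 and 7.92 on the Bcl11b arrays, a log2 fold change of 0.43 (SE 0.13, limma adjusted p = 0.304) with groups that overlap by 1 mock array.

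Vim, the intermediate filament of progenitors and of mesenchymal cells, was detected on all arrays, with log2 signals of 14.41, 14.55, 14.38 and 14.60 on the mock and 14.10, 14.17, 14.12 and 14.60 on the Bcl11b arrays. Bcl11b replicates 1 to 3 lay below every mock array and replicate 4 did not. The log2 fold change was -0.24 (SE 0.13, limma adjusted p = 0.629). Without Bcl11b replicate 4 it was -0.33 with an unadjusted limma p of 0.00151. Since that array lay with the mock arrays, a smaller p follows from leaving it out. Over all probes, leaving it out raised the number under 0.05 from 2670 to 3183. The log2 fold change turned to 0.54 after scaling every array to its median, so its direction depends on the scaling. Vim also lay near the top of the scale. Its deposited signal was 26887 on Bcl11b replicate 4, where the highest of any probe was 28366. Quantile normalization sets a value by rank, and mock replicate 4 and Bcl11b replicate 4 received the same value.

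Sox2, the factor that maintains neural stem cells, had 2 probes detected on all 8 arrays, and these disagreed. The brighter gave 8.0, 9.85, 9.10 and 9.53 on the mock and 9.21, 9.14, 9.29 and 9.64 on the Bcl11b arrays, a difference of 0.20 within a mock spread of 0.81 (SD, n = 4). The dimmer gave 9.14, 8.56, 8.35 and 9.06 on the mock and 8.12, 8.47, 8.19 and 7.50 on the Bcl11b arrays, a log2 fold change of -0.71 (limma adjusted p = 0.438), which 7 of the 17 other settings moved over an unadjusted 0.05. The brighter probe was lowest and the dimmer one highest on mock replicate 1.

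Sox9, a factor of radial glia and astrocytes, was detected on 4 mock and 3 Bcl11b arrays, at log2 signals of 7.03, 7.47, 6.62 and 7.58 and of 6.47, 6.55, 6.04 and 7.29. Bcl11b replicate 4 lay within the mock arrays. The log2 fold change of -0.59 had a 95% interval of -1.38 to 0.21. Without Bcl11b replicate 4 it was -0.82 with an unadjusted limma p of 0.0308. Here too a smaller p follows from leaving out the array that lay with the mock arrays. Sox4, which acts in newborn neurons, was detected on 3 mock and 4 Bcl11b arrays and gave 0.35 (95% interval -0.31 to 1.01). Of 9 further progenitor genes, Hes1 and Notch1 were detected on all arrays and Slc1a3 on 4, and none of the 3 had an unadjusted p-value under 0.05.

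None of the 5 detected neuronal genes had an unadjusted p-value under 0.05 either. Stmn2, a regulator of microtubule growth in axons, had log2 signals of 10.62, 9.85, 10.13 and 10.03 on the mock and 9.74, 9.94, 9.85 and 10.07 on the Bcl11b arrays. The groups overlap, with mock replicate 1 above all others, and the log2 fold change was -0.26 (95% interval -0.67 to 0.16). Map2, the dendritic microtubule-associated protein, gave 9.59, 10.07, 9.91 and 10.02 on the mock and 10.13, 10.22, 9.89 and 10.20 on the Bcl11b arrays with its bright probe, a log2 fold change of 0.21 (95% interval -0.09 to 0.52). Its other 2 probes were each detected on 1 Bcl11b array and no mock array.

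Eno2, the neuronal enolase, was nearly level between the groups, at 0.019 (95% interval -0.35 to 0.38). The cell adhesion molecule Ncam1 gave -0.094 (95% interval -0.55 to 0.36) with its brighter probe and 0.43 (95% interval -0.05 to 0.91) with the dimmer one. The medium neurofilament Nefm was detected on 1 mock and 2 Bcl11b arrays and gave 0.37 (95% interval -0.36 to 1.10).

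Of 13 further neuronal genes with a probe, 6 were detected, beside 47.3% of all symbols. One of them rose past the adjusted threshold, as did 0.468% of all detected probes. Ina, the neuronal intermediate filament alpha-internexin, gave log2 signals of 6.29, 6.24, 5.91 and 6.13 on the mock and 7.49, 7.16, 7.51 and 7.23 on the Bcl11b arrays, and was detected on 1 mock and 4 Bcl11b arrays. The groups lie apart, at a log2 fold change of 1.21 (SE 0.12, limma adjusted p = 0.0235), and its adjusted p was over 0.10 in 2 other settings, under a replicate block (0.193) and without normalization between arrays (0.207). Tubb2b, a neuronal beta-tubulin with 5 probes detected on all arrays, was lower at an unadjusted p-value under 0.05 with its brightest probe alone (log2 fold change -0.30, limma adjusted p = 0.309), and its other 4 probes ran from -0.46 to 0.36. Syn1 had 2 detected probes that went opposite ways, at 0.87 (limma adjusted p = 0.521) and -1.04 (limma adjusted p = 0.449). The lower of these had an unadjusted p-value under 0.05.

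The 5 detected striatal genes were Arpp19, Ensa, Osbpl9, Foxp1 and Gng7. Arpp19 and Ensa are paralogs, small phosphoproteins that inhibit the phosphatase PP2A and are expressed in most tissues, and Osbpl9 is a widely expressed lipid transfer protein. Osbpl9 had log2 signals of 12.25, 12.28, 12.41 and 12.44 on the mock and 12.02, 11.92, 11.95 and 12.13 on the Bcl11b arrays. The groups lie apart, by a narrow gap. The log2 fold change was -0.34 (limma adjusted p = 0.128), and it was -0.15 with an unadjusted p of 0.17 after scaling every array to its median. Arpp19 had log2 signals of 10.37, 10.43, 10.64 and 10.86 on the mock and 10.03, 10.16, 10.02 and 10.40 on the Bcl11b arrays. Here Bcl11b replicate 4 lies above the lowest mock array, and the log2 fold change was -0.42 with an adjusted p of 0.351 from limma. Its unadjusted p was over 0.05, though at most 0.0533, after scaling every array to its median, or without mock replicate 3 or Bcl11b replicate 1 or 3.

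Ensa had 2 probes detected on all 8 arrays. The brighter gave 10.72, 10.34, 10.55 and 10.57 on the mock and 10.48, 10.51, 10.33 and 10.52 on the Bcl11b arrays, a log2 fold change of -0.086 (95% interval -0.30 to 0.12). The dimmer gave 8.60, 8.85, 9.08 and 8.61 on the mock and 9.22, 9.35, 9.21 and 9.32 on the Bcl11b arrays, a log2 fold change of 0.49 (95% interval 0.21 to 0.77, limma adjusted p = 0.206). All Bcl11b arrays exceeded all mock arrays with the dimmer probe but not with the brighter one.

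Whether the probes of 1 gene moved differently was tested on their ratio within each array, for the 4 genes with 2 probes detected on all arrays. In Ensa the log2 ratio of the dimmer to the brighter probe went from -1.76 ± 0.33 (SD, n = 4) to -1.19 ± 0.064 (SD, n = 4), with groups that do not overlap (exact permutation test, two-sided, p = 0.0286, the smallest that 4 against 4 arrays can give, and 0.0571 after Benjamini-Hochberg adjustment over the 4 genes). In Nes it went from -3.08 ± 0.17 to -2.65 ± 0.089, also without overlap and with the same exact p-values. In Sox2 the ratio was lower by 0.91 with an exact p of 0.2, and in Cd44 it differed by -0.080 with an exact p of 0.886. The 2 Cd44 probes correlated over the 8 arrays (r = 0.84), whereas those of Sox2 ran opposite to each other (r = -0.48), as did those of Ensa (r = -0.44). These correlations are given as descriptions over 8 arrays of 2 groups. The part of each transcript that a probe reads is not given in the files used here.

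**Figure D4:**
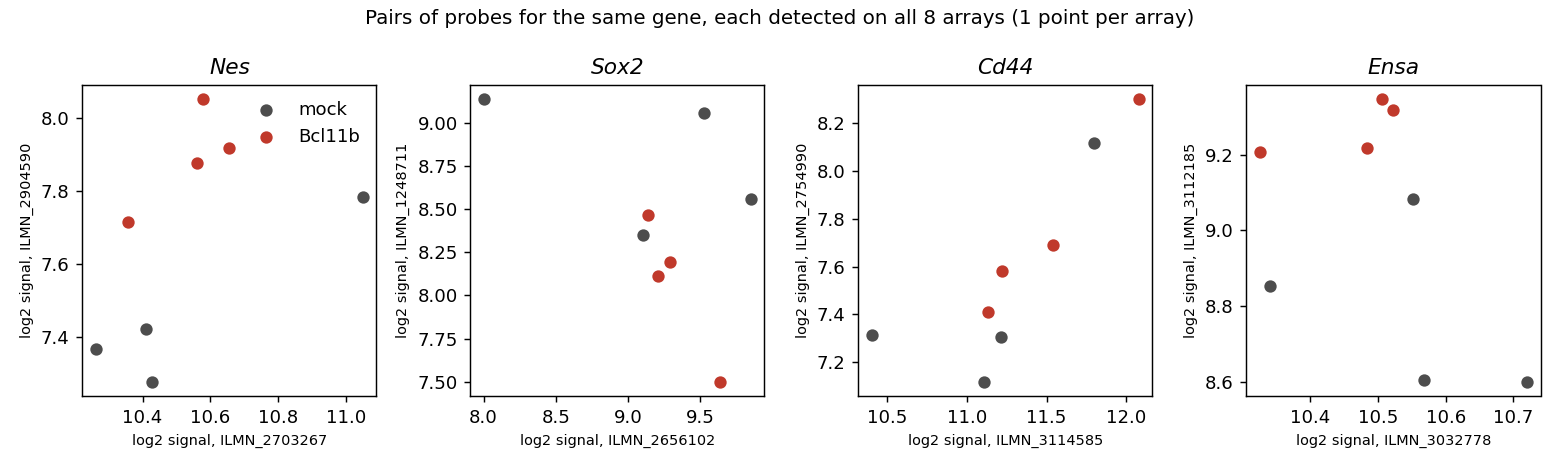
Log2 signals of 2 probes of the same gene plotted against each other, 1 point per array, mock in grey and Bcl11b in red. In Nes and Ensa the Bcl11b arrays lie above the mock arrays at a like signal of the brighter probe (horizontal axis), while the Cd44 probes rise together over both groups.

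Foxp1, a transcription factor of medium spiny neurons, gave log2 signals of 8.87, 9.76, 9.08 and 9.53 on the mock and 9.66, 9.67, 9.76 and 10.06 on the Bcl11b arrays. The log2 fold change was 0.48 (95% interval -0.05 to 1.00, limma adjusted p = 0.530), with an unadjusted limma p of 0.068. Mock replicate 2 lies as high as most Bcl11b arrays. Without mock replicate 2 the log2 fold change was 0.63 with an unadjusted limma p of 0.0193. A smaller p follows from leaving out the array that lay with the Bcl11b arrays. Foxp1 was also among the genes that the study chose on these arrays. Gng7, the G protein subunit that couples striatal receptors to adenylyl cyclase, was detected with 1 of 3 probes and was level between the groups, at 0.073 (95% interval -0.30 to 0.45).

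Genes that specify striatal progenitors before the mature genes appear were present. Of 9 such genes with a probe, Dlx1, Dlx2 and Ebf1 were detected on all 8 arrays, and the other 6 were not detected. Ebf1, needed for the direct-pathway neurons, had log2 signals of 8.54, 8.40, 8.70 and 8.30 on the mock and 8.06, 8.08, 7.99 and 8.21 on the Bcl11b arrays, apart by a narrow gap, with a log2 fold change of -0.40 (limma adjusted p = 0.206). Dlx1, a homeobox factor of the ganglionic eminences, had -0.32 (limma adjusted p = 0.332) and its neighbour Dlx2 had -0.12 (limma adjusted p = 0.957). Of 17 further striatal genes with a probe, 8 were detected and 6 of these had an unadjusted p-value under 0.05, 5 lower and 1 higher, none past the adjusted threshold, beside 17.7% of all detected probes (12.5% lower and 5.16% higher). All 6, namely Pde10a, Pde1b, Ngef, Rin1 and Zfp521, which were lower, and Klf16, which was higher, were chosen by the study on these arrays because they changed, so the count is not independent evidence.

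**Figure D5:**
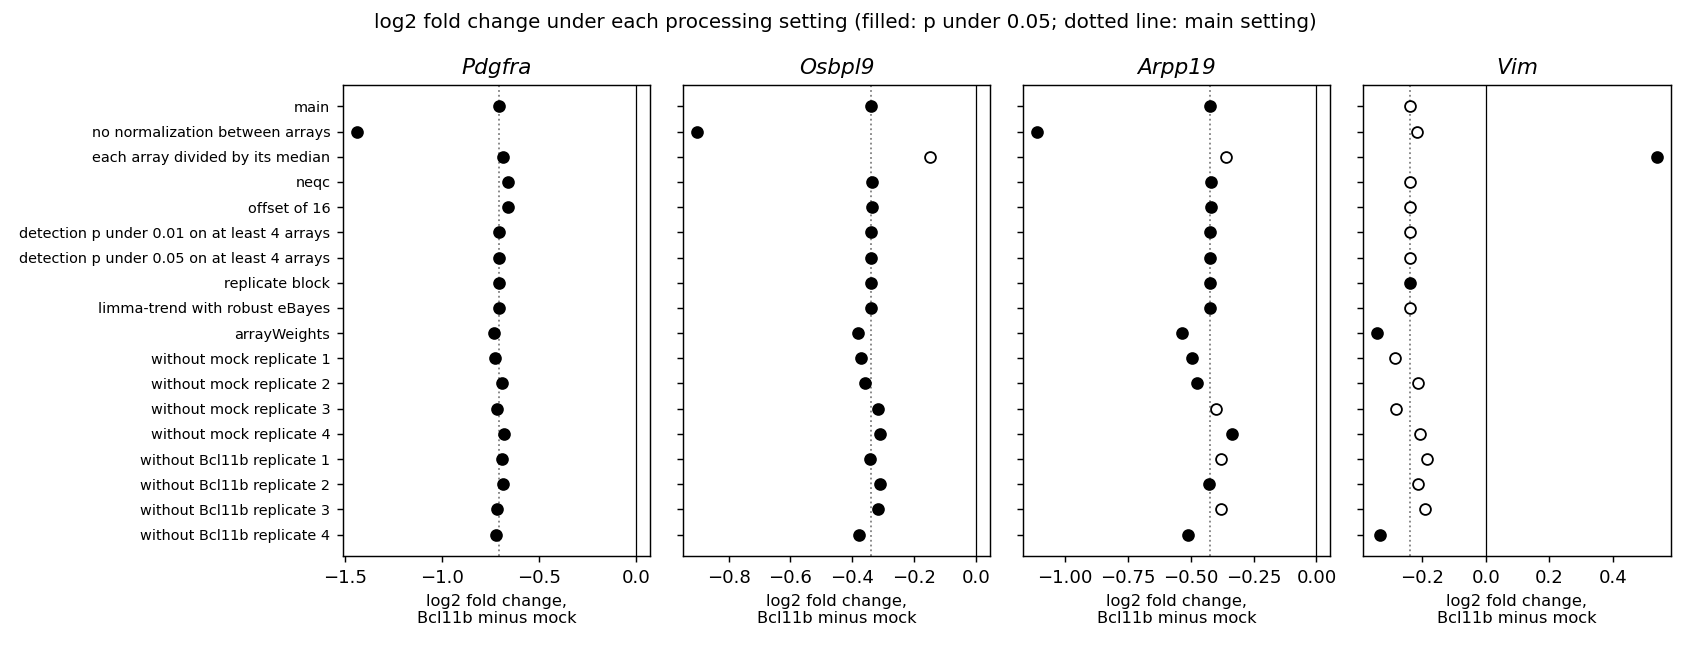
Log2 fold change, Bcl11b minus mock, of Pdgfra, Osbpl9, Arpp19 and Vim under the main setting and 17 others, filled where the unadjusted p-value was under 0.05, with the main value as a dotted line. Pdgfra stays filled and near -0.70 in all but the unnormalized setting, while Vim turns to 0.54 after scaling to the array median.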

How the data were processed

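Average bead signals and detection p-values of 8 arrays were used. The authors deposited 1 intensity per probe and array, exported from GenomeStudio after background subtraction and without normalization between arrays. They also deposited detection p-values, which rank each probe among the negative controls. The intensities were quantile-normalized as in the study's methods, set to at least 1, put on the log2 scale and compared with limma (version 3.58.1, R 4.3.3, lmFit and eBayes) over all 25697 probes with Benjamini-Hochberg adjustment and no covariate. The test was also run on simulated arrays, with changes seeded in probes detected on all 8 arrays and independent noise. Deviations of the real arrays were correlated, so that run is no check of error rates here. All 44 genes are named, and a gene was represented by the probe detected on the most arrays, then by the brightest. Companion lists of marker genes were counted, and examples were named among detected members. The members and lists were chosen with earlier results of these data known, and the test on pairs of probes was added after the values were seen. Alternatives covered normalization, offset, filters, replicate block, variance model, array weights and leaving out each array. Array precision is limited by 4 arrays per group.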

Additional observations from a re-analysis of the deposited data

Results flagged for a closer look

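In 56 groups of 4 arrays (28 detected probes in 2 groups), 3 had 1 array far from the others, where chance gives about 1 in 20. Bcl11b replicate 4 stood apart for Vim, at a log2 signal of 14.60 against 14.10 to 14.17 on the other Bcl11b arrays, and for the dimmer Ncam1 probe, at 7.57 against 6.84 to 6.95. Mock replicate 1 stood apart for a Map2 probe that was not detected on any mock array (ILMN_2709782), at 2.68 against 4.62 to 5.01.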

How the results depend on the processing

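The count of genes with an unadjusted p-value under 0.05, 3 of 18, was 10 without normalization between arrays (all lower), 6 under a replicate block, 5 with arrayWeights, and lay between 2 and 5 with each array left out, the 5 being without Bcl11b replicate 4. With each array divided by its median it was again 3, but 2 higher and 1 lower. The count past the adjusted threshold, 1, was 0 without normalization, 2 with neqc and 2 with arrayWeights, and lay between 1 and 2 with each array left out, the 2 being without Bcl11b replicate 4. At a detection limit of 0.05, 8 neuronal and 8 striatal genes were detected in place of 5 and 5. Same-numbered arrays did not pair (correlations of deviations 0.68, -0.63, 0.18 and 0.70), and over all probes the replicate block lowered the adjusted calls from 252 to 45.

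Over the 28 probes and the other settings, 394 values kept their direction and side of 0.05, 21 lost and 26 gained a p-value under it, and 29 changed direction. Without normalization, which shifted the median over detected probes by -0.68 (-0.49 over all probes), Nes (dimmer probe) was at -0.32, Sox2 (brighter) at -0.48, Sox4 at -0.39, Cspg4 at -0.52, Cd44 at -0.29, -0.46 and -0.35, Map2 at -0.48 and -0.12, Nefm at -0.36, Eno2 at -0.70, Ncam1 (dimmer) at -0.32, Foxp1 at -0.21, Gng7 at -0.67 and Ensa (dimmer) at -0.22. Divided by the median, Vim was at 0.54 and Nes (brighter) at 0.067. With arrayWeights, Sox2 was at -0.0045 and Gng7 at -0.053. Leaving out single arrays, the brighter Nes probe ran from -0.093 to 0.17 (positive without mock replicate 2 and, at 0.059, without Bcl11b replicate 1), Sox2 from -0.18 (without mock replicate 1) to 0.44, Eno2 from -0.11 (without mock replicate 2) to 0.082, Ncam1 from -0.24 to 0.017 (without mock replicate 4), Gng7 from -0.030 (without Bcl11b replicate 3) to 0.17 and a dim Cd44 probe from -0.34 to 0.12 (without Bcl11b replicate 2). Eno2 was also negative without Bcl11b replicate 1 (-0.0063) or 2 (-0.050), and Gng7 without mock replicate 1 (-0.014). None of these had been past 0.05 but Nes and Ensa with their dimmer probes. The causes were not tested.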
